A study of Mus musculus with 9 samples.

Results

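The AMPA receptor subunit genes Gria1, Gria2, Gria3 and Gria4 and the kainate receptor subunit genes Grik1, Grik2, Grik3, Grik4 and Grik5 were followed in RNA sequencing of mouse hippocampus. They were picked by symbol, after the Ensembl identifiers of the deposited count matrix were joined to GENCODE gene symbols of build GRCm38. All 9 were found among the 47643 genes of the matrix, and all 9 had enough counts to be tested in every comparison. AMPA and kainate receptors are glutamate-gated ion channels assembled from subunits of their own family. AMPA receptors carry most of the fast excitatory current at hippocampal synapses, and a rise in their number at the synapse underlies much of long-term potentiation. Kainate receptors pass slower currents, act on both sides of the synapse and are best known in the hippocampus from the mossy fibre synapses onto CA3 pyramidal cells.

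The study compared hippocampi of MRL/mpj control mice (the WT columns, called controls here), of lupus-prone MRL/lpr mice, whose lpr mutation disrupts the death receptor gene Fas, and of lpr mice that had received mesenchymal stem cells (the MRL/lpr+MSC group), at an age of 6 weeks. Each group has 3 libraries of messenger RNA. The labels enter C57BL/6 as the strain of every sample while the paper describes MRL strains, and the dose and timing of the cells are not given in the sources used here. No label names a batch, a date or mice paired by replicate number. The paper describes its MRL/mpj and MRL/lpr hippocampal columns as single mice, and the labels do not say this of any library, so p-values measure the spread between libraries.

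Total counts per library were 20991419, 24114666 and 19475804 in MRL/mpj, 26912031, 22858589 and 22438063 in MRL/lpr, and 20014975, 21213137 and 21914100 in MRL/lpr+MSC. A limit of 3 counts corresponds to 0.105 to 0.163 CPM (counts-per-million, scaled between libraries by the trimmed mean of M-values). That limit covers counting error only, and every member lay above it in every library.

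The labels and the study's own table of FPKM values (fragments-per-kilobase-per-million, which allow for gene length) do not name the same libraries. The columns which that table heads MRL/lpr match the libraries labelled MRL/lpr+MSC, with 100% of 1629 genes in a constant ratio within 1%, and the libraries labelled MRL/lpr for at most 6.14% of genes. Its MRL/mpj columns match the libraries labelled MRL/mpj for 100% of genes. The labels were kept, results are given for each lpr group against MRL/mpj, and the main ones also for all 6 libraries of the lpr genotype together.

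Markers of the hippocampal fields were present in every library. The summed level of 5 CA1 markers, of which Wfs1 is the most abundant, was 629, 771 and 730.4 CPM in the controls, 447, 235 and 433 in MRL/lpr, and 472, 596 and 452 in MRL/lpr+MSC. It was lower in every MRL/lpr and MRL/lpr+MSC library than in any MRL/mpj library, and lowest in MRL/lpr replicate 2. The 6 markers of dentate granule cells, led by Prox1, summed to 488, 597 and 393 CPM in the controls, 353, 639 and 298 in MRL/lpr, and 212, 385 and 343 in MRL/lpr+MSC. The 6 markers of CA2 and CA3 pyramidal neurons, led by Spock1, summed to 430.1, 425 and 542 CPM, then 334, 425 and 262, then 613, 329.7 and 329 in the same order of groups. MRL/lpr+MSC replicate 1 stood out with the highest CA2 and CA3 sum and the lowest dentate sum of all 9 libraries. In bulk RNA, fewer cells of a type and less RNA per cell cannot be told apart.

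Compared per length, on the FPKM scale, Gria1 was the most abundant member in MRL/mpj hippocampus at 196 ± 6.87 FPKM (SD, n = 3). Gria2, whose edited transcript makes the channel nearly impermeable to calcium, followed at 60.1 ± 3.25 FPKM (SD, n = 3). Grik5 (46.9 ± 1.41 FPKM) and Gria3 (23.9 ± 1.40 FPKM) came next, each apart from its neighbours by more than the spread (SD, n = 3 each). Gria4 (7.80 ± 0.215 FPKM), Grik2 (7.79 ± 0.510 FPKM) and Grik4 (6.56 ± 1.59 FPKM) did not differ beyond their spread (SD, n = 3 each). Grik3 at 4.57 ± 0.328 and Grik1 at 2.53 ± 0.176 FPKM were the lowest (SD, n = 3 each). The lower places depend on the gene lengths taken by the authors. Counts per kilobase of annotated exon, scaled to the library total, put Grik2 at 4.63 ± 0.353, below Gria4 at 7.23 ± 0.141 and near Grik3 at 4.36 ± 0.336 (SD, n = 3 each). On that scale Grik4 stood at 6.23 ± 1.40 and Grik1 at 1.125 ± 0.0972 (SD, n = 3 each).

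The order of the upper 4 was the same in the lpr groups, at 157 ± 12.6, 47.2 ± 1.52, 37.4 ± 3.71 and 15.8 ± 0.560 FPKM in MRL/lpr for Gria1, Gria2, Grik5 and Gria3 (SD, n = 3 each). The same genes stood in MRL/lpr+MSC at 156 ± 7.12, 49.3 ± 2.88, 42.5 ± 5.76 and 18.4 ± 1.84 FPKM, where Gria2 and Grik5 did not differ beyond their spread (SD, n = 3 each). Grik3 moved up in the order, to 8.89 ± 2.79 FPKM in MRL/lpr and 8.69 ± 2.58 in MRL/lpr+MSC (SD, n = 3 each). It stood there above the means of Gria4 (7.87 ± 2.91 FPKM), Grik2 (7.04 ± 0.932) and Grik4 (5.64 ± 2.18) in MRL/lpr, by less than the spread (SD, n = 3 each). For MRL/lpr+MSC the order was Gria4 (10.3 ± 2.36 FPKM), Grik3, Grik4 (7.63 ± 5.65) and Grik2 (7.19 ± 0.728), again within the spread, and Grik1 was last at 3.40 ± 0.703 (SD, n = 3 each). Grik1 was also last in MRL/lpr, at 2.71 ± 1.31 FPKM (SD, n = 3). Per kilobase of annotated exon Grik2 was lower, at 4.62 ± 0.511 in MRL/lpr and 4.50 ± 0.269 in MRL/lpr+MSC, apart there from Grik3 at 9.36 ± 3.00 and 8.79 ± 2.90 (SD, n = 3 each).

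**Figure D1:**
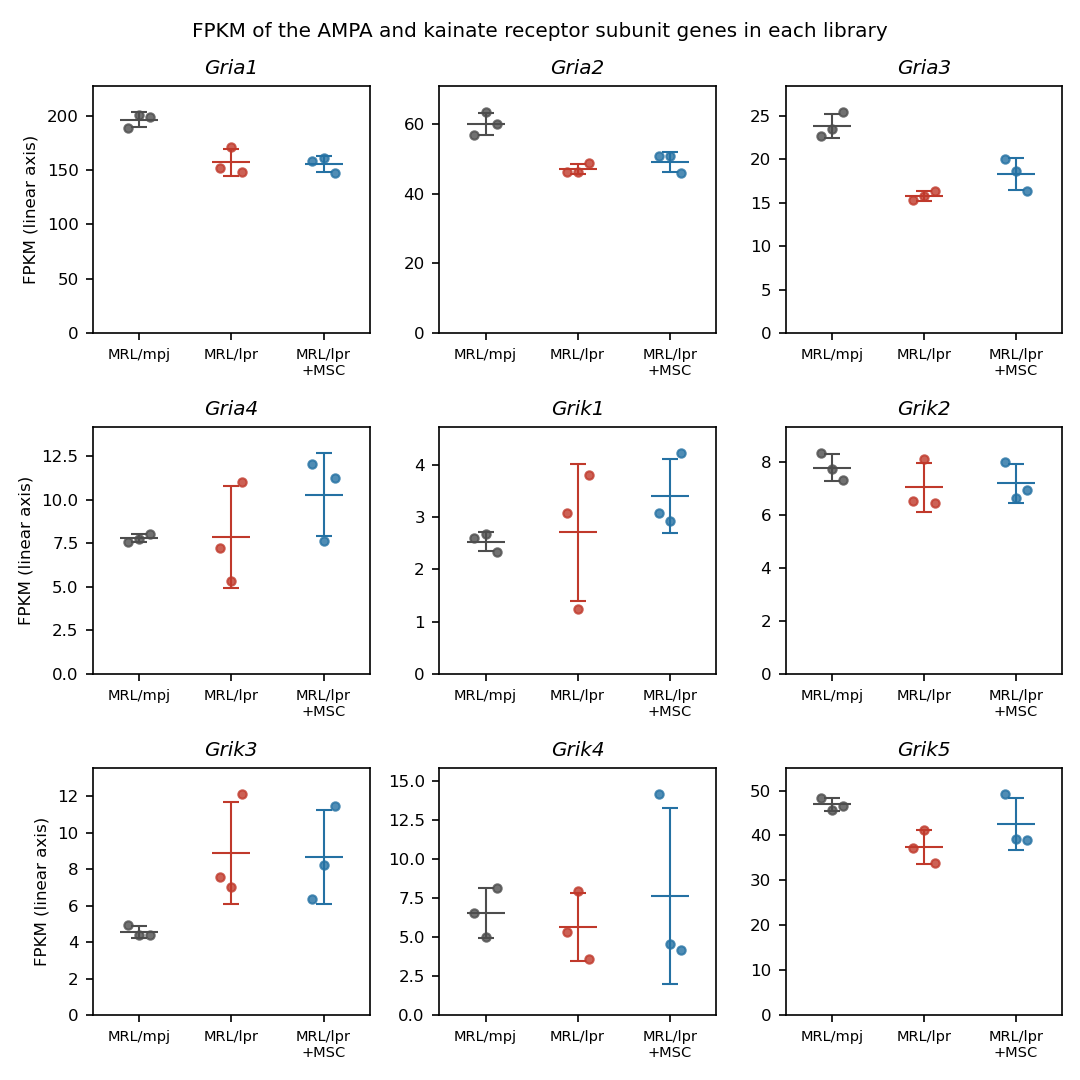
Level of each subunit gene in each library in FPKM, with each panel on its own axis from 0, points for the 3 libraries of a group, and lines for the mean and the SD. All 3 MRL/mpj libraries lie above both lpr groups for Gria1, Gria2 and Gria3 and below them for Grik3, whose mean is 4.57 FPKM in MRL/mpj and 8.89 in MRL/lpr.

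MRL/lpr libraries were compared with the controls to ask what differs in the hippocampus of the lupus-prone mice. The AMPA subunit genes Gria2 and Gria3 were called lower and the kainate subunit gene Grik3 higher. Gria1 and Grik5, with log2 fold changes of -0.31 and -0.32 beside -0.33 for Gria2, were not called. A gene was called when its adjusted p in limma voom, with Benjamini-Hochberg adjustment over all genes tested and two-sided tests, was under 0.05. By that rule 3 of 9 members were called against 9.32% of the 16697 genes tested, 2 of them lower (4.99% of all genes) and 1 higher (4.32%). Asking also for a 1.5-fold change, as the study did, left Grik3, 1 of 9 against 5.80% of all genes. At an unadjusted p under 0.05 there were 5 of 9 members against 30.5% of all genes. The groups did not overlap for 5 of 9 members against 38.0% of all genes, 4 of them lower in MRL/lpr (18.6%) and 1 higher (19.4%). By share, members called, or apart and lower, were more frequent than among all genes, and members apart and higher were not; a single gene makes the 1.5-fold count, and no test of the list was made.

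Gria3, on the X chromosome (ENSMUSG00000001986, chrX:41400854-41678601), encodes GluA3, which pairs with GluA2 in many forebrain receptors. It stood at 224, 233 and 248 CPM in the control libraries and at 152, 157 and 162 CPM in MRL/lpr. Every MRL/lpr library was far below every MRL/mpj library, and the replicates lay close together. Its level fell by 0.58 on the log2 scale (SE 0.07, 95% confidence interval -0.73 to -0.42), a ratio of 0.671, with an adjusted p of 0.00691 from limma voom. The adjusted p was 0.0520 without MRL/mpj replicate 3 and 0.00301 to 0.0520 over the 14 alternatives.

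Gria2 (ENSMUSG00000033981, chr3:80681450-80802835) had 886, 989 and 924 CPM in the control libraries and 727, 726 and 762 CPM in MRL/lpr. The groups were apart, and the MRL/lpr libraries were near one another. It fell by 0.33 on the log2 scale (SE 0.07, 95% confidence interval -0.50 to -0.17), with an adjusted p of 0.0349 from limma voom. The adjusted p was 0.0998, 0.126 and 0.133 without MRL/mpj replicates 1, 2 and 3, 0.113 without MRL/lpr replicate 1, 0.0556 with the replicate number as a block, and 0.0154 to 0.133 over the 14 alternatives.

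Gria1 (ENSMUSG00000020524, chr11:57011387-57330244) encodes GluA1, the subunit whose phosphorylation and delivery to synapses are best studied in potentiation. It had 1139, 1217 and 1192 CPM in the control libraries and 923, 1047 and 897 CPM in MRL/lpr. All MRL/lpr libraries were lower, MRL/lpr replicate 2 the least so. The log2 fold change of -0.31 (SE 0.08, 95% confidence interval -0.50 to -0.11) had an adjusted p of 0.0612 from limma voom, above the threshold. The adjusted p was 0.0146 without MRL/lpr replicate 2, 0.0285 with no filter on low counts, 0.0216 with library quality weights, and 0.0146 to 0.185 over the 14 alternatives.

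Gria4 (ENSMUSG00000025892, chr9:4417896-4796234), the subunit gene typical of fast-spiking interneurons, had 46.7, 47.9 and 48.8 CPM in the control libraries and 44.8, 33.1 and 67.9 CPM in MRL/lpr. The MRL/lpr libraries lay on both sides of the tight control values. Its log2 fold change of -0.04 (SE 0.24) had an adjusted p of 0.936 from limma voom and ran from -0.29 to 0.21 with 1 library left out. It was positive, 0.21, without MRL/lpr replicate 2.

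Grik3 (ENSMUSG00000001985, chr4:125490700-125714173) encodes GluK3, a kainate receptor subunit of low glutamate affinity that forms channels without a partner. It had 44.5, 39.6 and 38.8 CPM in the control libraries and 68.4, 63.6 and 109 CPM in MRL/lpr. Every MRL/lpr library was above every MRL/mpj library, and MRL/lpr replicate 3 was far above the others. It rose by 0.93 on the log2 scale (SE 0.21, 95% confidence interval 0.42 to 1.45), a ratio of 1.91, with an adjusted p of 0.0468 from limma voom. Grik3 belongs to a pathway list that the study drew from its own comparison of lpr and control hippocampus. The lpr columns of the study's sheet match the libraries labelled MRL/lpr+MSC, and the controls are the same in both comparisons, so Grik3 against the controls is not taken as independent evidence in either lpr group. The adjusted p was 0.130, 0.143 and 0.161 without MRL/mpj replicates 1, 2 and 3 and 0.0972 without MRL/lpr replicate 1. It was 0.0557 with no filter on low counts and 0.0586 with all 9 libraries in a single fit, within a range of 0.00876 to 0.161 over the 14 alternatives.

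Grik5 (ENSMUSG00000003378, chr7:25009849-25072346) encodes GluK5, a subunit of high glutamate affinity that needs a partner such as GluK2 to form a channel. It had 250.5, 236 and 239 CPM in the control libraries and 193, 215 and 175 CPM in MRL/lpr. The groups did not overlap, with MRL/lpr replicate 3 the lowest. The log2 fold change of -0.32 (SE 0.09, 95% confidence interval -0.52 to -0.11) had an adjusted p of 0.0666 from limma voom. The adjusted p was 0.0187 without MRL/lpr replicate 2, 0.0229 with library quality weights, and 0.0187 to 0.188 over the 14 alternatives.

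The remaining kainate subunit genes overlapped between the groups. Grik2 (ENSMUSG00000056073, chr10:49094833-49788766) encodes GluK2, the main partner of GluK5, lay between 53.5 and 68.9 CPM in these 6 libraries and showed a log2 fold change of -0.14 (limma voom, adjusted p = 0.428). With 1 library left out the value of Grik2 ran from -0.24 to -0.073. Grik4 (ENSMUSG00000032017, chr9:42518135-42944493) encodes GluK4, the other high-affinity subunit, which is strong in CA3, and had 38.9, 29.8 and 48.2 CPM in the control libraries and 32.1, 47.9 and 21.6 CPM in MRL/lpr. Its libraries scattered widely in both groups, and the log2 fold change of -0.23 (limma voom, adjusted p = 0.637) turned to 0.05 without MRL/lpr replicate 3. Grik1 (ENSMUSG00000022935, chr16:87895900-88290265) encodes GluK1, which is found in interneurons, and had 8.14, 8.38 and 7.24 CPM in the control libraries and 9.71, 3.96 and 11.9 CPM in MRL/lpr. MRL/lpr replicate 2 was below all other libraries, and the log2 fold change of -0.02 (limma voom, adjusted p = 0.982) ran from -0.29 to 0.43 with 1 library left out. It was positive without MRL/lpr replicate 2 (0.43), MRL/mpj replicate 2 (0.03) or MRL/mpj replicate 1 (0.00063).

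Among the 9 members, 8 had a negative log2 fold change, against 47.2% of all genes tested, with a median of -0.23 where all genes had 0.02. The count of called members depended on single libraries. It was 1, 1 and 0 without MRL/mpj replicates 1, 2 and 3, 1 without MRL/lpr replicate 1 and 5 without MRL/lpr replicate 2. The counts over all genes moved too. Without the MRL/mpj replicates, 129 of 16524, 122 of 16500 and 76 of 16520 genes were called lower and 101, 98 and 63 higher. Without MRL/lpr replicate 1, 183 of 16145 genes were lower and 145 higher, and without replicate 2, 1457 of 16283 and 1190. Markers moved in the same libraries: of the 5 CA1 markers 4 were called lower, Fibcd1 with a log2 fold change of -1.11 (limma voom, adjusted p = 0.00370), and 1 of 8 markers of neurons in general was, beside 4.99% of all genes. The summed level of those 8 neuronal markers, led by Snap25, was 7205, 6751 and 7837 CPM in the control libraries and 5296, 5988 and 5739 in MRL/lpr. The part of these marker differences in the subunit differences was not tested.

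The comparison of MRL/lpr+MSC with MRL/mpj shares its controls with the one above and asks how far the treated mice differ from control mice. No member was called: 0 of 9 against 5.00% of 16196 genes in limma voom, with 0 higher (2.46% of all genes) and 0 lower (2.54%), while 5 of 9 had an unadjusted p under 0.05, against 22.9% of all genes. Other settings called 0 members with limma-trend, 4 with library quality weights, 2 with no filter on low counts and 1 with all 9 libraries in a single fit. Limma-trend called 432 genes lower and 459 higher of 16196, and library quality weights 919 and 1156. With no filter 441 genes were lower and 396 higher of 28893, and in the single fit 341 and 277 of 17113. The groups did not overlap for 5 of 9 members against 29.6% of all genes, 3 of them lower (14.4%) and 2 higher (15.2%), on 9 genes and with no test of the list. At a 1.5-fold change the count was 0 of 9, against 3.41% of all genes. A negative log2 fold change was found for 5 of 9 members against 48.5% of all genes, so their directions as a group were near the background.

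Gria1 had 950.2, 983 and 893 CPM in MRL/lpr+MSC, below all MRL/mpj libraries, and a log2 fold change of -0.32 (limma voom, adjusted p = 0.0547). Gria2 had 783, 802 and 714 CPM and a log2 fold change of -0.28 (limma voom, adjusted p = 0.101). Gria3 had 196, 185 and 162 CPM and a log2 fold change of -0.37 (limma voom, adjusted p = 0.0615). All 3 lay below every control library, as in MRL/lpr, and Gria3 was spread more widely here. Grik3 had 56.5, 74.8 and 103 CPM in MRL/lpr+MSC, each above the controls, and a log2 fold change of 0.90 (SE 0.21, 95% confidence interval 0.39 to 1.40, adjusted p = 0.0643 from limma voom). Grik1 had 9.54, 9.28 and 13.2 CPM, all above the controls, and a log2 fold change of 0.42 (limma voom, adjusted p = 0.208). With 1 library left out the value of Grik1 ran from 0.23 to 0.51.

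The other members overlapped between MRL/lpr+MSC and MRL/mpj. Gria4 had 73.5, 47.3 and 69.0 CPM, replicate 2 being within the control values, and a log2 fold change of 0.38 (limma voom, adjusted p = 0.222). Grik4 had 83.7, 27.3 and 25.1 CPM, with replicate 1 far above all other libraries and its fellow replicates below the control values, and a log2 fold change of 0.00 (SE 0.47, adjusted p = 0.997 from limma voom). The log2 fold change of Grik4 was -0.52 without MRL/lpr+MSC replicate 1 and -0.21 without MRL/mpj replicate 2. Grik5 had 252, 205 and 202 CPM, with replicate 1 again the highest, and a log2 fold change of -0.14 (limma voom, adjusted p = 0.431). With 1 library left out the value of Grik5 ran from -0.24 to -0.10. Grik2 had a log2 fold change of -0.11 (limma voom, adjusted p = 0.515), which ran from -0.18 to -0.060 with 1 library left out.

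The main fit called 411 genes lower and 399 higher of 16196, and the fit without MRL/lpr+MSC replicate 1 called 1219 and 1334 of 16021. The count of called members was 5 without that replicate. The adjusted p was then 0.0206 for Gria1, 0.0427 for Gria2, 0.0145 for Gria3, 0.00611 for Grik3 and 0.0346 for Grik5 (limma voom). Over the 13 alternatives it ran from 0.0183 to 0.197 for Gria1, 0.0427 to 0.270 for Gria2, 0.0145 to 0.212 for Gria3, 0.00611 to 0.190 for Grik3 and 0.0346 to 0.694 for Grik5. Without MRL/lpr+MSC replicate 2, Gria4 alone was called, with a log2 fold change of 0.57 (limma voom, adjusted p = 0.0266, 0.0266 to 0.485 over the 13 alternatives). That fit called 179 of 15865 genes higher and 207 lower. Replicate 1 is also the library with the highest CA2 and CA3 marker sum, 613 CPM, and the highest general neuronal sum of all 9 libraries. The 8 neuronal markers summed to 8278, 5756 and 6001 CPM in MRL/lpr+MSC, above every control in replicate 1 and below every control in the others. Of the 5 CA1 markers 1 was called lower and of the 8 neuronal markers 0 were called, beside 2.54% of all genes called lower. Of the 6 dentate granule markers 0 were called, and 4 had an unadjusted p under 0.05, against 22.9% of all genes. All 6 had a negative log2 fold change, with a median of -0.59. The part of these sums and markers in the subunit differences was not tested.

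The comparison of MRL/lpr+MSC with MRL/lpr asks what the cells changed within the lpr genotype. No gene was called by limma voom, 0 of 16758 tested, and no member, 0 of 9, against 0% of all genes. At an unadjusted p under 0.05 there were 648 genes, 3.87% of those tested, and 0 members. Limma-trend and library quality weights also called 0 genes, with 684 and 1024 at an unadjusted p under 0.05. The libraries of the groups overlapped for 9 of 9 members, where 9.98% of all genes had groups apart (5.71% lower and 4.27% higher with MSC). A negative log2 fold change was found for 2 of 9 members against 50.9% of all genes.

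Gria3 showed a log2 fold change of 0.21 (95% confidence interval -0.02 to 0.43, adjusted p = 0.921 from limma voom), an interval that holds 0. Grik3 showed a log2 fold change of -0.04 (95% confidence interval -0.73 to 0.65, adjusted p = 0.988 from limma voom), an interval that holds changes past 1.5-fold in both directions. The 9 members had a median log2 fold change of 0.18 where all genes had -0.00. The smallest adjusted p of a member was 0.921, so no difference of these genes between treated and untreated lpr mice passed the test. The direction turned for Grik3 without MRL/lpr replicate 3 (0.21) or MRL/lpr+MSC replicate 1 (0.17), and without the same libraries for Grik4 (-0.03 and -0.30) and Grik2 (-0.03 and -0.05). It turned for Grik2 also without MRL/lpr replicate 1 (-0.02), for Grik1 without MRL/lpr replicate 2 (-0.01), and for Gria1 without MRL/lpr replicate 2 (0.05) or MRL/lpr+MSC replicate 3 (0.02).

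With all 6 libraries of the lpr genotype against MRL/mpj, a fit chosen after seeing the data, 4 of 9 members were called against 9.20% of 17113 genes. Gria1 fell by 0.32 (adjusted p = 0.0223), Gria2 by 0.31 (adjusted p = 0.0201) and Gria3 by 0.48 (adjusted p = 0.0119) on the log2 scale in limma voom. Grik3 rose by 0.91 on the log2 scale, a ratio of 1.88 (limma voom, adjusted p = 0.0294). All 6 lpr libraries were below the 3 controls for Gria1, Gria2 and Gria3 and above them for Grik3. Grik5 showed a log2 fold change of -0.23 (limma voom, adjusted p = 0.167). This fit does not depend on which lpr libraries were treated.

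**Figure D2:**
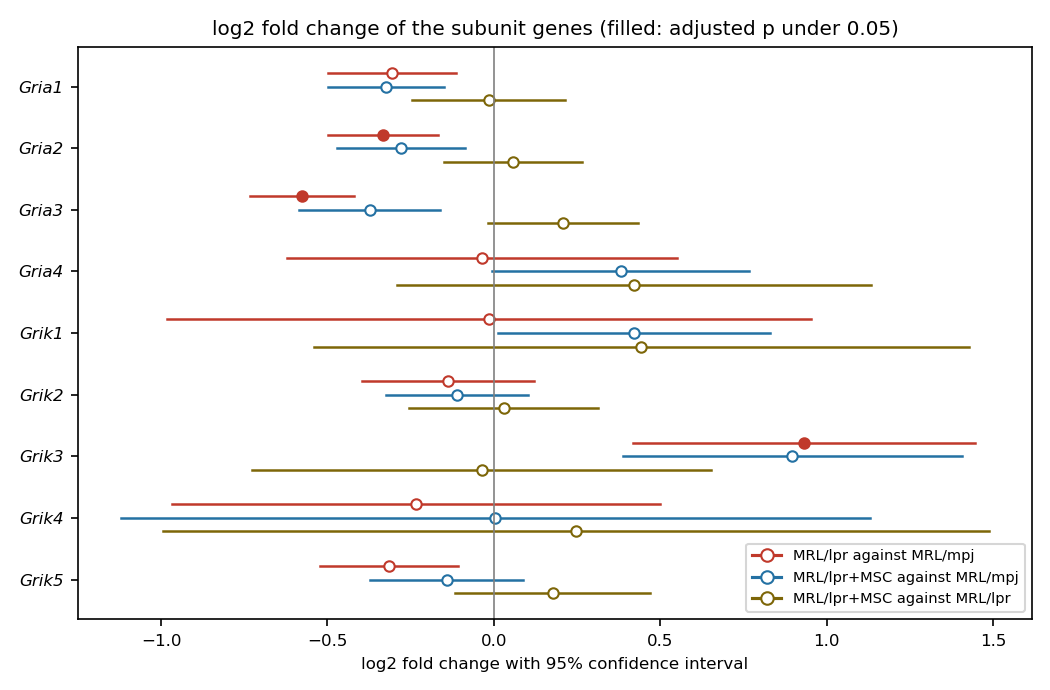
Log2 fold change of each subunit gene in the 3 comparisons, with bars for the 95% confidence interval of limma voom, filled points for an adjusted p under 0.05 and a line at 0. Gria3 at -0.58 and Grik3 at 0.93 are the members farthest from 0 in MRL/lpr against MRL/mpj, and in MRL/lpr+MSC against MRL/lpr every interval holds 0.

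Shares within each family were taken from FPKM, which makes them independent of the scaling between libraries. The summed AMPA subunit level was 288 ± 10.9 FPKM in MRL/mpj, 228 ± 9.66 in MRL/lpr and 234 ± 10.9 in MRL/lpr+MSC (SD, n = 3 each). The summed kainate subunit level was 68.4 ± 2.73, 61.7 ± 3.37 and 69.4 ± 10.03 FPKM in the same order (SD, n = 3 each). Exact two-sided permutation tests of 3 libraries against 3 cannot give a p under 0.1, and over the 27 shares tested the smallest Benjamini-Hochberg adjusted p was 0.3. A p of 0.1 is therefore the smallest possible and marks groups that do not overlap.

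Of the AMPA subunit sum, Gria3 made up 8.22, 7.96 and 8.68% in MRL/mpj, 6.94, 6.59 and 7.30% in MRL/lpr and 8.31, 7.81 and 7.41% in MRL/lpr+MSC. MRL/lpr lay below both other groups without overlap, while MRL/lpr+MSC overlapped with the controls. The mean difference was -1.34 percentage points for MRL/lpr against MRL/mpj (exact permutation p = 0.1) and 0.898 for MRL/lpr+MSC against MRL/lpr (exact permutation p = 0.1). Gria1 held 68.3, 68.0 and 68.1% in MRL/mpj and 65.7, 67.6 and 66.7% in MRL/lpr+MSC, a lower share in every treated library (difference -1.46 points, exact permutation p = 0.1, and -0.962 points without MRL/lpr+MSC replicate 1). Gria4 held 2.76, 2.63 and 2.74% in MRL/mpj and 4.99, 3.19 and 5.08% in MRL/lpr+MSC, a higher share in every treated library (difference 1.71 points, exact permutation p = 0.1). Gria2 overlapped in all 3 comparisons, between 19.4 and 21.8% in every library.

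Of the kainate subunit sum, Grik5 made up 68.4, 69.8 and 67.8% in MRL/mpj, 62.3, 62.9 and 56.6% in MRL/lpr, and 60.9, 63.7 and 59.3% in MRL/lpr+MSC. Its share was lower in all 6 lpr libraries than in any control. Its FPKM was not, with 49.1 in MRL/lpr+MSC replicate 1 and 48.4, 45.6 and 46.7 in the controls. The other lpr libraries had 33.8 to 41.2 FPKM. Shares of a family add up to the whole, so a higher Grik3 share and a lower Grik5 share are not separate results. The difference of the Grik5 share was -8.07 percentage points in MRL/lpr (exact permutation p = 0.1) and -7.36 in MRL/lpr+MSC (exact permutation p = 0.1). Grik3 made up 6.99, 6.73 and 6.35% in MRL/mpj, 12.7, 10.7 and 20.2% in MRL/lpr, and 7.87, 13.4 and 17.4% in MRL/lpr+MSC. It was higher in all 6 lpr libraries, only slightly so in MRL/lpr+MSC replicate 1. The difference of the Grik3 share was 7.84 percentage points in MRL/lpr and 6.20 in MRL/lpr+MSC (exact permutation p = 0.1 each). It was 5.00 without MRL/lpr replicate 3 and 3.94 without MRL/lpr+MSC replicate 3. Grik2 made up 11.0, 12.4 and 10.8% in MRL/lpr and 9.93, 10.8 and 10.5% in MRL/lpr+MSC, a difference of -0.975 points (exact permutation p = 0.1) that was -0.478 without MRL/lpr replicate 2. The other shares overlapped.

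**Figure D3:**
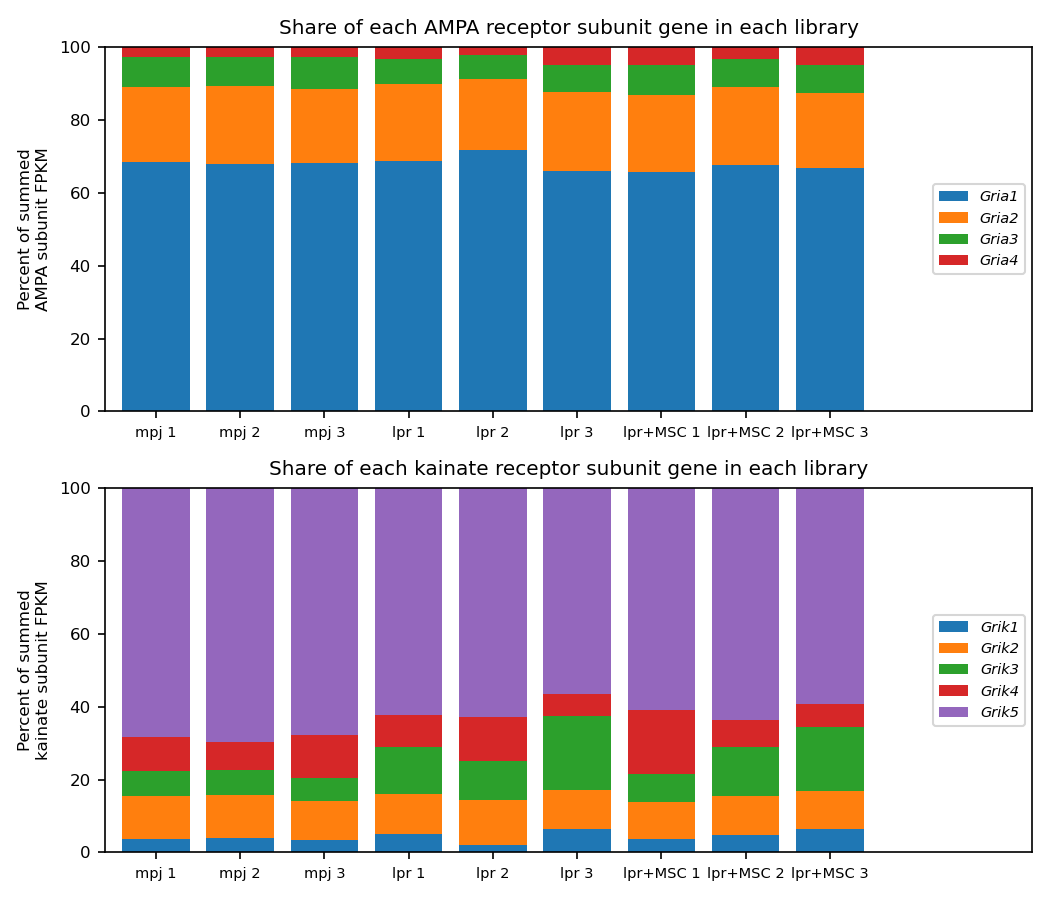
Share of each subunit gene in the summed FPKM of its family, in percent, stacked for each of the 9 libraries, AMPA subunits in the upper and kainate subunits in the lower panel. Grik5 takes 67.8 to 69.8% of the kainate sum in MRL/mpj and 56.6 to 63.7% in the lpr libraries, while Grik3 takes 6.35 to 6.99% and 7.87 to 20.2%.

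The genes that build and hold AMPA receptors were read from lists. Of 15 auxiliary subunit genes, which set the gating and traffic of the receptor, 4 were called lower in MRL/lpr against MRL/mpj, beside 4.99% of all genes, with a median log2 fold change of -0.14 where all genes had 0.02. Cacng8, the hippocampal TARP gamma-8, had 163, 166 and 175 CPM in the controls, 110.1, 132 and 105 in MRL/lpr, and 117, 125 and 109 in MRL/lpr+MSC. All lpr libraries were below all controls, and it fell by 0.54 in MRL/lpr (adjusted p = 0.0233) and by 0.52 in MRL/lpr+MSC (adjusted p = 0.0128) on the log2 scale in limma voom. Cacng3, another TARP, fell by 0.59 (adjusted p = 0.0115), Shisa7 by 0.38 (adjusted p = 0.0184) and Syndig1 by 0.44 (adjusted p = 0.0435) on the log2 scale in MRL/lpr. Against the same controls 2 of the 15 were called in MRL/lpr+MSC, Cacng8 and Syndig1, which fell by 0.56 (limma voom, adjusted p = 0.0279), beside 2.54% of all genes called lower, and the median was 0.01, as for all genes.

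Of 5 genes for assembly in the endoplasmic reticulum 1 was called in each lpr group, lower, beside 4.99% of all genes in MRL/lpr and 2.54% in MRL/lpr+MSC, so a single gene makes the count, and the median was -0.28 in MRL/lpr and -0.14 in MRL/lpr+MSC. That gene, Frrs1l, whose product helps AMPA receptors assemble, had 491, 441 and 514 CPM in the controls, 289, 342 and 285 in MRL/lpr, and 368, 315 and 279.5 in MRL/lpr+MSC. The lpr libraries did not reach the controls, and it fell by 0.66 (adjusted p = 0.0149) and 0.59 (adjusted p = 0.0364) on the log2 scale in limma voom. Of 17 genes for anchoring and recycling 2 were called, both lower, in MRL/lpr, beside 4.99% of all genes called lower, with a median of -0.14. These were Dlg4, the scaffold PSD-95, which fell by 0.30 (adjusted p = 0.0326), and the secreted pentraxin Nptx2, which fell by 0.88 (adjusted p = 0.0361). Of the 17, 1 was called in MRL/lpr+MSC, Nptx2, which fell by 1.05 (limma voom, adjusted p = 0.0233), beside 2.54% of all genes called lower, with a median of 0.02.

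Among kinase and phosphatase genes that act on AMPA receptors, the protein kinase C gene Prkcb fell by 0.69 on the log2 scale in MRL/lpr (limma voom, adjusted p = 0.0184). It is in pathway lists that the study drew from its own comparison and is not taken as independent evidence. The calcineurin genes Ppp3ca and Ppp3cb fell there by 0.54 (adjusted p = 0.0446) and 0.38 (adjusted p = 0.0401). Against the same controls Camk2b, a subunit gene of the calcium-dependent kinase CaMKII, fell by 0.40 (adjusted p = 0.0342) and Ppp3ca by 0.52 (adjusted p = 0.0233) in MRL/lpr+MSC.

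Of 3 RNA editing enzyme genes, which include the enzyme that recodes Gria2, 1 was called in each lpr group, lower (4.99% and 2.54% of all genes), Adarb2, an editing family member without known catalytic activity. It had 77.7, 76.4 and 47.3 CPM in the controls, 20.7, 31.0 and 21.6 in MRL/lpr, and 23.2, 24.4 and 22.6 in MRL/lpr+MSC. Both lpr groups lay below the controls, and it fell by 1.46 (adjusted p = 0.0230) and 1.48 (adjusted p = 0.0142) on the log2 scale in limma voom. The list medians were -0.12 and 0.05. Of 4 kainate receptor auxiliary subunits and extracellular partners 0 were called by limma voom in either lpr group, with 0 in MRL/lpr and 2 in MRL/lpr+MSC at an unadjusted p under 0.05 (30.5% and 22.9% of all genes) and medians of -0.36 and -0.23. Of the most abundant, Neto1 showed a log2 fold change of -0.55 in MRL/lpr (adjusted p = 0.193) and -0.07 in MRL/lpr+MSC (adjusted p = 0.946), and Neto2 had -0.16 (adjusted p = 0.513) and -0.01 (adjusted p = 0.984).

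Among genes for glutamate loading and uptake, the neuronal transporter Slc1a1 fell by 0.52 on the log2 scale in MRL/lpr (limma voom, adjusted p = 0.00888) and by 0.41 in MRL/lpr+MSC (limma voom, adjusted p = 0.0199). Between the lpr groups 0 genes of any of these lists were called by limma voom, and 1 gene, of the auxiliary subunit list, had an unadjusted p under 0.05.

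By correlation of log2(CPM + 0.5) over the 9 libraries, the genes with the pattern nearest to each member were computed among 11869 genes, as a description, since the libraries fall into the groups compared above. For Gria1 these were Zfp189 (r = 0.992), Igfbp4 (r = 0.987) and Cacng8 (r = 0.987). For Gria2 they were 4930503L19Rik (r = 0.976), Xk (r = 0.971) and Magi2 (r = 0.970), and for Gria3 Calm2 (r = 0.987), Usp39 (r = 0.985) and Pvalb (r = 0.984). For Gria4 they were Arl4c (r = 0.985), Elavl4 (r = 0.984) and L1cam (r = 0.982). For the kainate genes the nearest were Mirg (r = 0.974), Meg3 (r = 0.956) and Gabra3 (r = 0.946) for Grik1, Armc8 (r = 0.965), Cblb (r = 0.942) and Zfpm2 (r = 0.928) for Grik2, and Ret (r = 0.992), Cul7 (r = 0.986) and Sesn3 (r = 0.986) for Grik3. Akap13 (r = 0.972), Car4 (r = 0.971) and Peak1 (r = 0.968) were nearest to Grik4, and Zfyve28 (r = 0.993), Add1 (r = 0.982) and Cacna2d1 (r = 0.981) to Grik5. Among the members themselves, Gria2 and Gria3 ran together (r = 0.942), as did Gria1 and Gria2 (r = 0.884), while Gria1 and Grik3 ran opposite (r = -0.911). Gria4 and Grik1, both known from interneurons, had r = 0.828.

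The levels of other cells in the tissue varied between libraries. Interneuron markers (8 genes, led by Gad1) summed to 634, 676 and 701 CPM in the controls, 733, 442 and 1576 in MRL/lpr, and 641, 741 and 1282 in MRL/lpr+MSC. MRL/lpr replicate 3 and MRL/lpr+MSC replicate 3 were far above the rest, and the same libraries were highest for Grik3 and Grik1 in their groups. Gria4 was highest in MRL/lpr replicate 3 but not in MRL/lpr+MSC replicate 3, with 69.0 CPM there and 73.5 in replicate 1. Thalamic marker sums were also highest in replicate 3 of each lpr group, at 258 and 263 CPM. The high interneuron sum of MRL/lpr replicate 3 was carried by Gad1, Gad2 and Slc32a1, at 597, 565 and 229.8 CPM. Pvalb, Vip and Npy, at 23.6, 5.28 and 16.7 CPM there, lay below every control. In MRL/lpr these last 3 of 8 were called lower, beside 4.99% of all genes, and the list median was -0.47, while 0 of 8 were called in MRL/lpr+MSC, with a median of -0.02, so the sum does not stand for all interneuron markers. Choroid plexus markers (8 genes, led by Ttr) summed to 170.4, 527 and 715 CPM in the controls, 1084, 9739 and 114 in MRL/lpr, and 104, 4886 and 571 in MRL/lpr+MSC. MRL/lpr replicate 2 and MRL/lpr+MSC replicate 2 stood out there, and MRL/lpr replicate 2 had the lowest Grik1 and Gria4. Their part in the subunit values was not tested.

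Among markers from outside the hippocampus, the 10 striatal genes, led by Pde10a, summed to 166, 191 and 184 CPM in the controls, 218, 252 and 233 in MRL/lpr, and 188, 249 and 320.3 in MRL/lpr+MSC. The 6 thalamic genes, led by Prkcd, summed to 134, 103 and 127 CPM, then 215, 130.1 and 258, then 52.4, 174 and 263. Both sums were highest in MRL/lpr+MSC replicate 3, and the striatal sum was above all controls in each MRL/lpr library. The 7 neocortical genes, led by Tle4, summed to between 129 and 184 CPM in all libraries. Of these lists 1 of 10 striatal genes, Rgs9, was called higher in MRL/lpr (4.32% of all genes), and 1 of 7 neocortical genes, Fezf2, lower (4.99%), while 0 of 6 thalamic genes were called by limma voom. For MRL/lpr+MSC 0 genes of these lists were called. At an unadjusted p under 0.05 there were 5 of 10 striatal, 5 of 7 neocortical and 3 of 6 thalamic genes in MRL/lpr against 30.5% of all genes, and 2 of 10, 2 of 7 and 1 of 6 in MRL/lpr+MSC against 22.9%. A positive log2 fold change was found for 9 of 10 striatal genes in each lpr group, with medians of 0.57 in MRL/lpr and 0.80 in MRL/lpr+MSC. The same held for 5 of 6 thalamic genes in MRL/lpr, with a median of 0.46, and 4 of 6 in MRL/lpr+MSC, with a median of 0.40. Of the neocortical genes 4 of 7 were positive in MRL/lpr (median 0.18) and 6 of 7 in MRL/lpr+MSC (median 0.38).

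The other lists are given by their range over the 9 libraries. Astrocyte markers (7 genes, led by Slc1a3) summed to 2346 to 3215 CPM, oligodendrocyte precursor markers (5, led by Pdgfra) to 153 to 221 CPM, microglial markers (7, led by Csf1r) to 273 to 375 CPM and endothelial markers (4, led by Flt1) to 171 to 255 CPM. Oligodendrocyte markers (7, led by Mbp) ranged from 4249 CPM in MRL/lpr+MSC replicate 1 to 9713 CPM in MRL/lpr replicate 1. Meningeal markers (6, led by Igf2) ranged from 87.2 to 754 CPM, red blood cell markers (4, led by Hba-a1, with Hba-a2 at 0 in some libraries) from 27.6 to 161 CPM and immediate early genes (6, led by Egr1) from 198 to 474 CPM. Against the controls, 2 of 7 microglial markers were called lower in MRL/lpr (4.99% of all genes) and 1 of 4 endothelial markers higher (4.32%). For MRL/lpr+MSC these counts were 1 of 7 lower (2.54% of all genes) and 1 of 4 higher (2.46%), and all 7 microglial markers had a negative log2 fold change there. All 7 oligodendrocyte markers were negative in both lpr groups, with medians of -0.26 in MRL/lpr and -0.44 in MRL/lpr+MSC. All 8 choroid plexus markers were positive in both, with medians of 1.84 and 1.01. Meningeal markers were negative for 1 of 6 in MRL/lpr and 6 of 6 in MRL/lpr+MSC (medians 0.50 and -0.54). Of these 3 lists 0 genes were called. Mitochondrial genes took 5.48, 4.44 and 4.80% of counts in the controls, 4.06, 3.72 and 4.39% in MRL/lpr, and 4.47, 4.57 and 4.51% in MRL/lpr+MSC. Every MRL/lpr library lay below every control, and the part of this in the subunit differences was not tested.

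**Figure D4:**
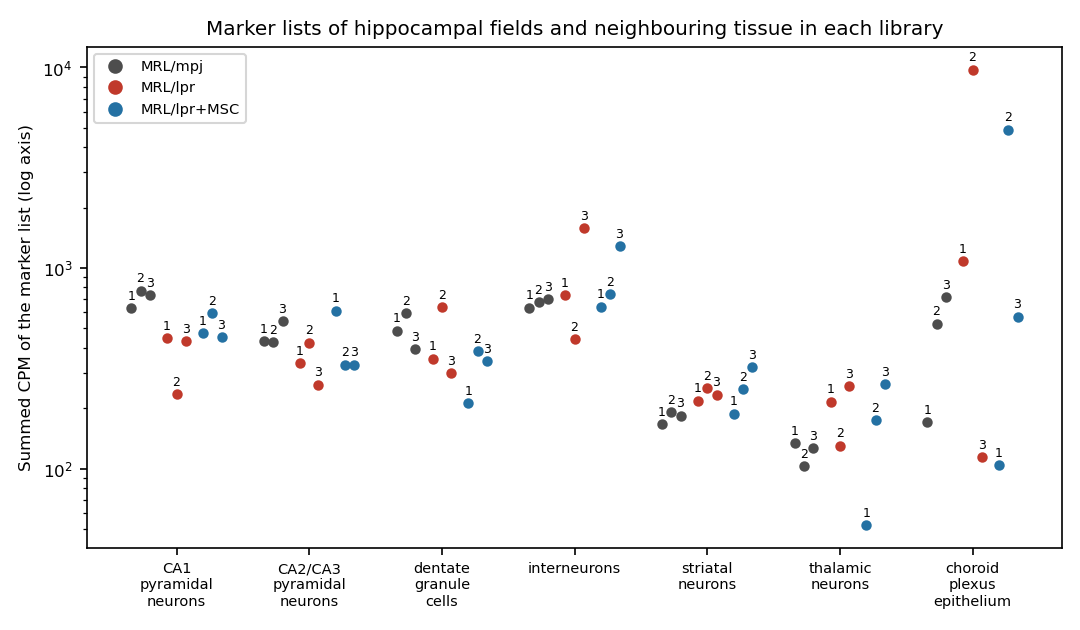
Summed level of 7 marker lists in each library in CPM, on a log axis, with points numbered by replicate and coloured by group. CA1 marker sums are 629 to 771 CPM in the control libraries and 235 to 596 CPM in the lpr libraries, and choroid plexus sums range from 104 to 9739 CPM.

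The members lie on chromosomes 3, 4, 7, 9, 10, 11, 16 and X, with Gria4 and Grik4 both on chromosome 9, and all are annotated as protein-coding. Exons of 5 members overlap no other gene, and those of 4 overlap a small RNA gene on the same strand. These are Gm25749 in Gria2, Gm22413 in Gria3, Gm23811 in Gria4 and Gm24420 in Grik4, and none had more than 5 counts in all 9 libraries together.

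Promoters of 300 bases, from 250 before to 50 after the gene start, were taken from the RefSeq table of build GRCm38.p6, which holds 6 of the 9 members and not Gria1, Gria3 and Grik1. The promoters of Gria2 and Grik3 are shown because Gria2 fell and Grik3 rose in MRL/lpr. The Gria2 promoter, chr3:80802786-80803085 on the minus strand, has 26 CpG sites and 65.7% G or C, and the Grik3 promoter, chr4:125490446-125490745 on the plus strand, has 50 and 82.0%, where the median of 32851 promoters is 7 CpG sites and 52.7%. Capitals mark matches, on either strand, to any of 4 motifs, the cyclic AMP response element core TGACG, the NBRE AAAGGTCA, the GC box GGGCGG and the E-box CACGTG.
Gria2: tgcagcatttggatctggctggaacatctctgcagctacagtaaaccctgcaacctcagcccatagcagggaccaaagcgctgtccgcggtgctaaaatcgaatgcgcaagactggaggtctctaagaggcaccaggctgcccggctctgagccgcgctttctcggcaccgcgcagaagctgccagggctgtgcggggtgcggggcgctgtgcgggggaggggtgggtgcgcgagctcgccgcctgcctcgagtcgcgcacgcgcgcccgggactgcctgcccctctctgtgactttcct
Grik3: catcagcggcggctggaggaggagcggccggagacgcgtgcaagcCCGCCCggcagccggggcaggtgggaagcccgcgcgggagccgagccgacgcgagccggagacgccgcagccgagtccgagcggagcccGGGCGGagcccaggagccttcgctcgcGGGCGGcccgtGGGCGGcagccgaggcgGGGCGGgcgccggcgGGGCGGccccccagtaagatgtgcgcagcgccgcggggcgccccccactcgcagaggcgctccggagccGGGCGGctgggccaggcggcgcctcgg
The Grik3 promoter holds 7 matches, all to the GC box, which is found in 35.7% of all promoters and also in those of Grik4 and Grik5. The Gria2 promoter holds 0 matches to any of the 4. The cyclic AMP response element core, in 20.8% of promoters, was matched in Grik2, and the NBRE (1.51% of promoters) and the E-box (7.15%) in 0 members. A match is a description of the letters and shows no binding.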

How the data were processed

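Hippocampal messenger RNA was captured with poly-T beads, and strand use in counting is not stated. According to the paper the authors aligned reads to mm10 with STAR and counted them with HTSeq, while the labels name TopHat2 and GRCm38. The deposited matrix holds raw read counts per gene, and the authors gave FPKM, computed from count and gene length, for each library; each FPKM table matched its own count column for 100% of 13655 genes.

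Members, lists and motifs were chosen with earlier results of these data known. A quasi-likelihood test had been planned and was not run, as the matrix uses a separator that left its unit unregistered; limma voom with robust empirical Bayes was used, as planned for that case. Genes passed a filter of at least 10 counts at the median depth in 3 libraries and 15 in total. Scaling was by TMM (trimming 30% of ratios and 5% of levels), adjustment by Benjamini-Hochberg over all genes tested, calling at an adjusted p under 0.05. The code was tested on simulated data. R 4.3.3, limma 3.58.1, statmod 1.5.0, Python 3.11.15 and scipy 1.17.1 were used.

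Named genes were all members. From each list they were the called genes, at most 4 with the smallest adjusted p, or, where none was called, the 2 most abundant, except that some genes, and the counts and medians of their lists, are not reported. Each marker list gave its most abundant gene and those at 0, and likeness the 3 highest correlations among genes of at least 5 CPM on average. Marker genes named as called were chosen after their values were seen. Alternatives were RLE scaling, no filter, a filter at 1 CPM in 3 libraries, all 9 libraries in a fit, the replicate number as a block, FPKM from the exon length of the annotation and each library left out. Limma-trend, library quality weights and the 6 lpr libraries together were added after seeing the data.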

Additional observations from a re-analysis of the deposited data

How the results depend on the processing

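Of 126 values of member log2 fold changes in MRL/lpr against MRL/mpj under 14 alternatives, 117 kept their direction; in MRL/lpr+MSC against MRL/mpj 113 of 117 did and in MRL/lpr+MSC against MRL/lpr 105 of 117. Genes outside the members were not recomputed singly. The planned negative-binomial Wald test was not run, as the matrix was not registered as counts. No label links libraries by replicate number. After group means were taken off log2 levels, MRL/lpr+MSC libraries were correlated with MRL/lpr libraries over 17113 genes. Replicates 1, 2 and 3 had r = -0.205, 0.252 and 0.403 with the library of the same number. Pairs of unlike number ran from -0.438 to 0.229. Whether libraries of the same number share a source was not tested. The cause of the changes below was not tested.

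In MRL/lpr against MRL/mpj the genes called were 139 to 2647 with 1 library left out and 3632 with library quality weights, chosen after seeing the data. At 1.5-fold they were 137 to 1484 and 2069. Members called were 0 to 5 with 1 library left out and 5 with quality weights; at 1.5-fold 0 to 2, 2 with quality weights, 2 with RLE, 0 with no filter and 0 with all 9 libraries. Against MRL/mpj, MRL/lpr+MSC had 163 to 2553 genes called with 1 library left out, 2075 with quality weights and 299 with the replicate block. At 1.5-fold they were 158 to 1346, 1182 and 280. Members called were 0 to 5 with 1 library left out, 2 with no filter, 1 with all 9 libraries and 4 with quality weights; at 1.5-fold 0 to 1 and 1 with quality weights. No gene was called in MRL/lpr+MSC against MRL/lpr by limma voom or any of the 13 alternatives.

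Directions turned for members that were not called. In MRL/lpr against MRL/mpj the log2 fold change of Grik1 was 0.075 with the block, 0.11 with quality weights and 0.18 with 6 lpr libraries, and that of Gria4 0.17 with 6 lpr libraries. With 1 library left out they ran from -0.29 to 0.21 for Gria4, -0.29 to 0.43 for Grik1 and -0.49 to 0.046 for Grik4. Comparing MRL/lpr+MSC with MRL/mpj, Grik4 was -0.0039 with RLE and -0.37 with quality weights, and -0.52 to 0.30 with 1 library left out. Between the lpr groups, with quality weights, Grik3 was 0.16 and Grik4 -0.10. With 1 library left out Gria1 ran from -0.053 to 0.046, Grik1 from -0.012 to 0.73, Grik2 from -0.052 to 0.13, Grik3 from -0.26 to 0.21 and Grik4 from -0.30 to 0.56.

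Differences of shares, in percentage points, that turned with 1 library left out were, in MRL/lpr against MRL/mpj, Gria1 (-0.749 to 2.16), Gria2 (-0.687 to 0.527), Grik1 (-0.178 to 2.04), Grik2 (-0.507 to 0.281) and Grik4 (-2.06 to 0.973). Grik4 did in MRL/lpr+MSC against MRL/mpj (-2.70 to 2.88), and in MRL/lpr+MSC against MRL/lpr Gria2 (-0.332 to 0.881), Grik1 (-0.761 to 1.46), Grik3 (-3.90 to 1.21), Grik4 (-2.18 to 3.40) and Grik5 (-1.28 to 1.88). With lengths from the annotation the share of Grik2 in MRL/lpr against MRL/mpj differed by 0.0216.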

Other observations

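Among the related glutamate receptors, 2 of the 6 NMDA receptor subunit genes tested were called in MRL/lpr against MRL/mpj, both lower, beside 4.99% of all genes, with a median log2 fold change of -0.43 where all genes had 0.02. Grin2b, the subunit gene of long-lasting NMDA currents, fell by 0.56 on the log2 scale (limma voom, adjusted p = 0.0267), and the other was Grin1. Of the 6, 1 was called in MRL/lpr+MSC against MRL/mpj, Grin1, which fell by 0.44 (limma voom, adjusted p = 0.0267), beside 2.54% of all genes called lower, so a single gene makes the count, and the median was -0.29. All 6 had an unadjusted p under 0.05 there, against 22.9% of all genes, 4 with a negative and 2 with a positive log2 fold change.

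Among the metabotropic receptor genes Grm4, a presynaptic receptor gene, was called higher in MRL/lpr+MSC against MRL/mpj (2.46% of all genes) and not in MRL/lpr, where its log2 fold change was 0.90 (limma voom, adjusted p = 0.196). It had 9.93, 8.51 and 9.80 CPM in the controls, 18.7, 9.99 and 28.0 in MRL/lpr, and 17.996, 22.9 and 31.0 in MRL/lpr+MSC. All treated libraries were above the controls, and its log2 level rose by 1.34 (limma voom, adjusted p = 0.0283). Grm5, another metabotropic receptor gene, showed a log2 fold change of -0.23 in MRL/lpr against MRL/mpj (limma voom, adjusted p = 0.255).

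Grm4 and Grin1 belong to the same pathway list of the study as Grik3, drawn from its own comparison of lpr and control hippocampus, so neither is taken as independent evidence.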
